A study of Rattus norvegicus with 5 samples.

Results

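Exonic 6mA peaks away from promoters are DNA regions, enriched by an antibody against N6-methyladenine (6mA), that the authors' peak annotation places on an exon and on no promoter, 2 kb upstream stretch, CpG island or CpG island shore. The choice used those annotation entries and no measured value. It gave 2583 peaks in Astrocytes, 3195 in Neurons and 2644 in NSCs, 8422 in all, out of 375486 peaks in the 3 lists of enrichment over input. The peaks are called exonic peaks here. Peaks with an intron entry, no exon entry and none of those 4 other entries are called intronic peaks.

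The study mapped 6mA in rat DNA with 1 immunoprecipitated library each for Astrocytes, Neurons and neural stem cells (NSCs). NSCs are SCR022, a line of adult rat hippocampal stem cells, so they stand for 1 line. The labels give Astrocytes and Neurons by cell type only, without strain, age or origin, and no group carries a stated treatment or allele. The study's title concerns N6amt1, a methyltransferase, and 6mA of Txnrd3 in the making of hippocampal neurons. DNA enrichment does not report expression, so the cell type labels could not be checked against marker genes.

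N6-methyladenine is a common modified base of bacterial DNA, and its amount and role in mammalian DNA are debated. N6amt1 has been proposed as an enzyme that writes it, and Alkbh1 as one that removes it. Exons are the stretches of a gene that are kept in mature RNA. Most of a typical mammalian gene is intron, and an internal exon is usually shorter than the fragments that an antibody pulls down, so a peak on such an exon tends to reach into its introns as well.

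The immunoprecipitated libraries held 15767015 reads in Astrocytes, 16095308 in Neurons and 15760246 in NSCs, of which 86.55% to 87.94% mapped uniquely. The inputs held 22329441 reads in Neurons and 27936774 in NSCs. The Astrocytes peak list was made against an Astrocytes input that belongs to no sample used here, so its depth is not analysed. No other assay here tells whether an enriched region carries 6mA. With 1 library per cell type there was no replicate spread to set a difference against, and no test between cell types was made. Scores (10 times the −log10 p) and folds (library over input) are the authors' own and describe peaks within a list. Folds of the 3 cell types are each relative to their own input and were only set side by side. Positions are those of the deposited files, whose build was not given in the sources used here. Intervals are at 95%, by the exact Clopper-Pearson method, and hold counting error alone.

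Exonic peaks were a small and similar part of each list. They made up 2.22% of the 116091 peaks in Astrocytes (95% interval 2.14% to 2.31%), 2.32% of the 137579 in Neurons (2.24% to 2.40%) and 2.17% of the 121816 in NSCs (2.09% to 2.25%). Another 769, 1007 and 748 peaks of Astrocytes, Neurons and NSCs had an exon entry but also a promoter, upstream or CpG island entry, and were left out. Intronic peaks numbered 36389 in Astrocytes, 42478 in Neurons and 37315 in NSCs. Exonic peaks were therefore 6.628% of exonic and intronic peaks together in Astrocytes, 6.995% in Neurons and 6.617% in NSCs.

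Most exonic peaks had an intron entry as well. What the exon and intron entries mark, taken here as any overlap of the peak, is inferred from the files and not stated in them. An intron entry stood beside the exon entry in 78.6% of them in Astrocytes, 78.8% in Neurons and 79.1% in NSCs. The remaining 554, 678 and 553 had no intron entry. Peaks at gene ends were a further group, with an entry for the 2 kb downstream of a gene in 16.6% of exonic peaks in Astrocytes, 16.2% in Neurons and 17.2% in NSCs. The intron entry can belong to another gene. An intron of another gene was entered for 7.36%, 7.04% and 7.64% of them in Astrocytes, Neurons and NSCs. Exons of 2 genes at once were entered for 6, 7 and 7 peaks, which cannot be given to 1 gene.

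The wider a peak was, the more often it was exonic, apart from the last step in Astrocytes. Any overlap was taken to count, and a wider peak has more room to meet an exon. A rise with width is therefore built into the definition, and any rise beyond that was not tested. The exonic share of exonic and intronic peaks was 4.83% in Astrocytes, 4.61% in Neurons and 4.19% in NSCs among peaks under 300 bp. It was 8.501%, 9.06% and 8.43% among peaks of 700 bp to under 1000 bp. Among peaks of 1000 bp or more it was 8.21% in Astrocytes, 10.8% in Neurons and 8.74% in NSCs, from 112, 181 and 150 exonic peaks. The share climbed at every step in Neurons and NSCs, and the last step in Astrocytes lay within its counting interval (6.80% to 9.79%). Exonic peaks had a median width of 491 bp in Astrocytes, 505 bp in Neurons and 509 bp in NSCs, against 452, 461 and 472 bp for intronic peaks. Those with no intron entry were narrower, with medians of 434.5, 455 and 462 bp. The same definition bears on these medians.

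**Figure D1:**
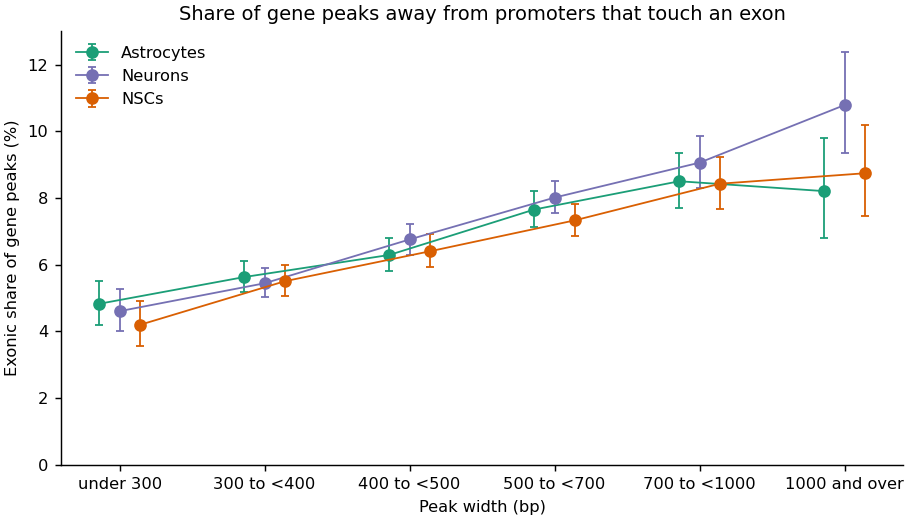
Exonic peaks as a percent of exonic and intronic peaks together (y axis), by peak width in bp (x axis), for Astrocytes, Neurons and NSCs. Any overlap with an exon was taken to count, so a wider peak has more room to meet one. Points are shares within a width class and bars are exact 95% intervals; the shares lie between 4.19% and 4.83% under 300 bp and between 8.21% and 10.8% at 1000 bp or more.

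Exonic peaks had slightly higher scores than intronic peaks and nearly the same folds. Their median score was 92.8 in Astrocytes, 92.1 in Neurons and 92.0 in NSCs, against 89.1, 90.1 and 88.3 for intronic peaks. Their median fold over input was 12.4 in Astrocytes, 12.1 in Neurons and 12.3 in NSCs, against 12.5, 12.1 and 12.3 for intronic peaks. Score moved with the intron entry: exonic peaks with an intron entry had median scores of 97.7, 97.7 and 95.0 in Astrocytes, Neurons and NSCs, and those without one had 76.5, 76.2 and 81.6. Width moved with score as well. Exonic peaks of Astrocytes scoring 50 to under 60 had a median width of 357 bp and those scoring 400 or more one of 823 bp. How much of the score difference goes with width was not tested.

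A fold of at least 50 was reached by 107 exonic peaks in Astrocytes (4.14%), 104 in Neurons (3.26%) and 75 in NSCs (2.84%). Among intronic peaks the shares were 3.35%, 3.29% and 2.25%. The highest exonic fold was 278 in Astrocytes, 342 in Neurons and 130 in NSCs. The Neurons maximum lay in a gene with a placeholder symbol only, as did 29.0% to 29.7% of exonic peaks in the 3 lists. Genes named below have a symbol that is no placeholder.

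The strongest exonic peaks lay in genes of varied function. In Astrocytes the gene with the highest exonic fold was Fam129a, a stress-response gene also called Niban1, with a peak at chromosome 13, 69089064 to 69089678, of fold 278. It was followed by Aox2, of the aldehyde oxidases, with a fold of 160, Ahrr, the repressor of the aryl hydrocarbon receptor, with 148, and Unc13c, a factor that primes synaptic vesicles for release, with 142. In Neurons the highest were Fkbp10, a collagen chaperone of the endoplasmic reticulum, with 152, Plet1, a placental surface protein, with 133, Ahrr with 130 and Wdr78, a gene of the ciliary dynein motor, with 127. In NSCs they were Arhgef3 with 130, Slc9b2, a sodium and proton exchanger, with 129, Fkbp10 with 106 and Unc13c with 97.7.

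A high exonic fold in 1 list went with a peak at the same place in the other lists. The exonic peak of Slc9b2 in NSCs, at chromosome 2, 240518294 to 240518989, overlapped peaks entered as intronic in Astrocytes and Neurons, with folds of 151 and 135. The Arhgef3 peak was exonic in Neurons and NSCs, with folds of 98.1 and 130, and overlapped an Astrocytes peak of fold 88.1 entered as intronic. Unc13c was exonic in Astrocytes and NSCs, and the Neurons peak there, of fold 75.4, was entered as intronic. Grip1, a scaffold that binds AMPA receptors, was exonic in Neurons and NSCs with folds of 79.7 and 90.5, beside an Astrocytes peak of fold 107 entered as intronic. In these 4 genes a peak was called in all 3 cell types, and its exon entry was what differed.

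A change of entry at a shared position was common across the lists. Where an exonic peak overlapped a peak of another cell type, that peak was exonic too in 76.9% to 82.9% of cases over the 6 pairs of lists, intronic in 15.6% to 20.6% and of another class in 1.46% to 3.39%. Exonic peaks with no intron entry had an exonic counterpart more often, in 85.6% to 93.7% of cases, against 74.5% to 80.3% for those with an intron entry. Every overlapping pair of exonic peaks carried the same gene.

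Over the 3 lists, the exonic peaks merged into 5563 loci. Of these, 1678 (30.2%) held a peak of any class in all 3 cell types, and 880 (15.8%) held an exonic peak in all 3. Counting any peak, 427 loci were found in Astrocytes and Neurons alone, 260 in Astrocytes and NSCs alone, and 371 in Neurons and NSCs alone. A peak was called in Astrocytes alone at 800 loci, in Neurons alone at 1203 and in NSCs alone at 824. Peaks of all classes were not merged in this way, so no share over all loci stands beside these counts. Per list, the share of exonic peaks overlapping neither other list was near that over all peaks, as given below.

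Exonic peaks overlapped both other lists more often than all peaks did, beyond their counting interval in Neurons and NSCs but not in Astrocytes. In Astrocytes, 47.2% of exonic peaks (45.3% to 49.2%) overlapped a peak in both other lists, against 47.3% of intronic peaks and 45.8% of all peaks. In Neurons the share was 41.1% (39.4% to 42.9%), against 40.1% of intronic and 38.6% of all peaks. In NSCs it was 48.6% (46.7% to 50.5%), against 45.9% of intronic and 43.6% of all peaks. Exonic peaks overlapping neither other list were 31.0% in Astrocytes, 37.7% in Neurons and 31.2% in NSCs, against 28.5%, 35.0% and 30.5% of intronic peaks and 29.2%, 36.1% and 32.1% of all peaks. That share was below the one over all peaks in NSCs and above it in Astrocytes and Neurons, each time within the exonic counting interval. Exonic peaks with no intron entry were shared less, with 39.0% of them in Astrocytes, 32.7% in Neurons and 42.5% in NSCs overlapping both other lists. Those with an intron entry gave 49.5%, 43.4% and 50.2%.

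Sharing climbed with score, and at the lowest scores exonic peaks were shared less than intronic ones in all 3 cell types. At scores of 50 to under 60, 10.1% of exonic peaks in Astrocytes (7.60% to 13.04%), 6.52% in Neurons (4.74% to 8.71%) and 10.9% in NSCs (8.39% to 13.8%) overlapped a peak in both other lists. Intronic peaks of that score gave 14.6%, 9.80% and 14.1%, above the exonic interval in each cell type. Exonic peaks of that score overlapped neither other list in 69.0%, 71.0% and 66.4% of cases in Astrocytes, Neurons and NSCs, against 57.1%, 64.1% and 58.6% of intronic ones. At 60 to under 80 the exonic shares were 17.8% in Astrocytes (14.7% to 21.2%), 12.7% in Neurons (10.4% to 15.3%) and 20.3% in NSCs (17.1% to 23.8%), against 22.4%, 15.7% and 21.3% of intronic peaks. At 80 to under 120 they were 34.0% in Astrocytes (29.8% to 38.4%), 26.5% in Neurons (22.8% to 30.4%) and 39.3% in NSCs (35.0% to 43.8%), against 39.1%, 28.2% and 39.1%. The intronic share was thus above the exonic interval up to 120 in Astrocytes, up to 80 in Neurons and up to 60 in NSCs. At scores of 120 to under 200 the order was the other way in Astrocytes and NSCs, by margins within or at the edge of the exonic intervals, with 70.8% and 72.0% of exonic peaks against 67.6% and 67.0% of intronic ones, while Neurons had 54.3% against 54.99%. At 400 or more nearly every peak was shared, with 389 of 391 exonic peaks in Astrocytes, 478 of 482 in Neurons and 393 of 394 in NSCs.

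**Figure D2:**
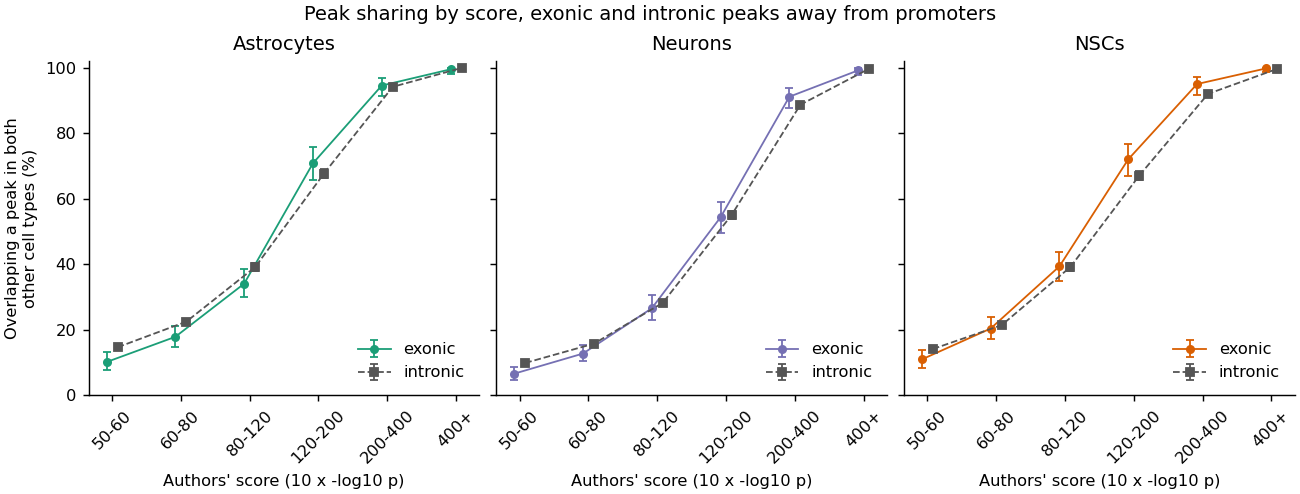
Percent of peaks that overlap a peak in both other cell types (y axis) by the authors' score, 10 times the −log10 p (x axis), for Astrocytes, Neurons and NSCs. Solid lines are exonic and dashed lines intronic peaks with exact 95% intervals; at scores of 50 to under 60 the exonic shares are 10.1%, 6.52% and 10.9% in Astrocytes, Neurons and NSCs, against 14.6%, 9.80% and 14.1% for intronic peaks.

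Exonic peaks overlapping each other in all 3 cell types lay in 578 genes with a symbol that is no placeholder. The 10 with the highest lowest fold were taken as the most strongly enriched common loci. Fam129a had folds of 278 in Astrocytes, 124 in Neurons and 84.7 in NSCs at chromosome 13, 69088996 to 69089695. Sept12, a septin of the sperm tail, had folds of 105, 117 and 82.9 in Astrocytes, Neurons and NSCs at chromosome 10, 10778163 to 10779091. Both loci had the score of 3100 in all 3 lists, a value that recurs exactly in 13 exonic peaks of Astrocytes, 9 of Neurons and 2 of NSCs, so that scores at this level do not rank peaks.

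Aox2 had folds of 160 in Astrocytes, 86.6 in Neurons and 81.3 in NSCs, and Ahrr had 148, 130 and 75.2. Tmem19, Ccdc158 and Tbc1d2, the last of them a regulator of Rab GTPases, had lowest folds of 68.6, 68.1 and 67.0. Astl, the egg protease ovastacin, had folds of 86.2 in Astrocytes, 78.4 in Neurons and 65.0 in NSCs. Fkbp10 was lowest in Astrocytes, with 64.9, against 152 in Neurons and 106 in NSCs. Itgad, an integrin subunit of leukocytes whose peak also lies within 2 kb of the gene end, had 97.1, 62.4 and 72.3. The fold in NSCs was the lowest of the 3 in 6 of these 10 genes, that in Neurons in 3 and that in Astrocytes in 1. High folds were rarer over the whole NSCs list as well. There 2.09% of all peaks had a fold of at least 50, against 3.12% in Astrocytes and 3.03% in Neurons. None of the 10 belongs to the lists of neural, glial or stem cell genes used here. All 16 gene lists together hold 431 genes, beside 20949 protein-coding genes with a symbol that is no placeholder. An absence among 10 genes therefore says little.

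**Figure D3:**
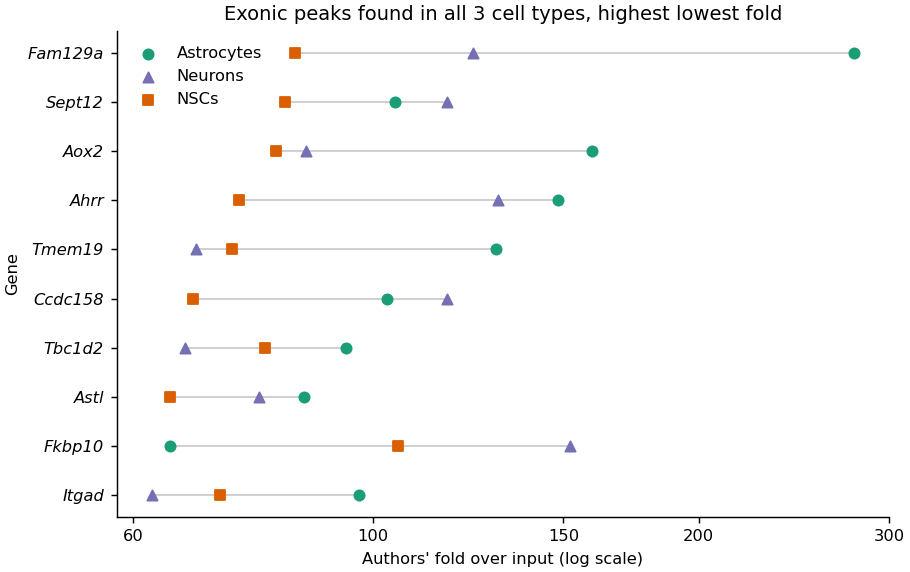
The authors' fold over input (x axis, log scale) of exonic peaks that overlap each other in Astrocytes, Neurons and NSCs, for the 10 genes with the highest lowest fold (y axis). Each point is 1 peak in 1 list and grey lines join the peaks of a gene; Fam129a spans 84.7 in NSCs to 278 in Astrocytes.

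Most genes had a single exonic peak. Exonic peaks lay in 2366 genes in Astrocytes, 2869 in Neurons and 2427 in NSCs, and 92.1%, 90.2% and 92.3% of them held 1. In all, 4693 genes held an exonic peak in some list and 957 in all 3. By the biotypes of the RefSeq annotation, 88.6% of the matched genes were protein coding in Astrocytes, 87.3% in Neurons and 88.2% in NSCs. Long noncoding RNA genes made up 10.4%, 11.3% and 10.7%. Genes with an intronic peak gave 89.4%, 88.9% and 89.2% protein coding and 9.94%, 10.4% and 10.0% long noncoding.

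A few genes held several exonic peaks. Zan, which codes for a sperm membrane protein, held 5 in Astrocytes, with folds between 7.07 and 34.2, and Nwd1 held 4. Utrn, coding for the dystrophin relative utrophin, and Insr, the insulin receptor gene, held 4 each in Neurons. Dnah6, coding for a heavy chain of the motor that bends cilia, held 6 in NSCs, with folds of 8.51 to 22.6. Of those 6, the peak at chromosome 4, 101044925 to 101045419, overlapped exonic peaks in both other lists, with folds of 12.6 in Astrocytes, 21.7 in Neurons and 12.5 in NSCs. Another 3 of the 6 overlapped no peak of Astrocytes or Neurons.

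Of the 4 exonic peaks of Utrn in Neurons, 2 overlapped exonic peaks in both other lists. The stronger of them, at chromosome 1, 6601459 to 6602171, had a fold of 73.6 in Neurons, beside 54.1 in Astrocytes and 27.7 in NSCs.

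Counts per gene followed gene length. Of 20949 protein-coding genes with a symbol that is no placeholder, 7.83% held an exonic peak in Astrocytes, 9.38% in Neurons and 7.93% in NSCs. Among the longest length decile of these genes, with a median length of 196.585 kb, the shares were 18.3%, 21.7% and 18.4%. Among the shortest decile, with a median of 0.939 kb, they were 0.0955%, 0.334% and 0.477%. The choice of peaks largely fixes low shares there, since so short a gene lies next to its own start. Each gene list is to be read against the shares of 7.83%, 9.38% and 7.93% over all genes and those of the longest decile, without a test.

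Genes with a very long coding sequence often held exonic peaks. Of 43 very long genes, 17 (39.5%) held one in Astrocytes, 20 (46.5%) in Neurons and 14 (32.6%) in NSCs. Csmd1, a large membrane protein with complement-control domains, had an exonic peak at chromosome 16, 78810021 to 78810550 over the lists, with folds of 60.9 in Astrocytes, 65.2 in Neurons and 32.7 in NSCs. Syne1, a nuclear envelope spectrin, had one in Astrocytes only, of fold 56.1, which overlapped intronic peaks of fold 63.5 in Neurons and 31.4 in NSCs. Hydin, which codes for a part of the ciliary axoneme, had its strongest exonic peak in NSCs, with a fold of 56.2. That Hydin peak overlapped intronic peaks of fold 30.7 in Astrocytes and 53.75 in Neurons.

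Axonemal dynein heavy chain genes, the family of Dnah6, held an exonic peak in 9 of 13 cases in Astrocytes, 11 in Neurons and 10 in NSCs, and 9 of the 13 held one in all 3. Their median length was 216.593 kb. Collagen genes held one in 17, 19 and 20 of 45 cases in Astrocytes, Neurons and NSCs, with a median length of 108.467 kb. These shares of 37.8%, 42.2% and 44.4% stand beside 18.3%, 21.7% and 18.4% over the longest decile of all genes. Both families code for long proteins from many exons, and the number of exons was not taken into account.

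Of 30 extracellular matrix genes, 12 (40%) held an exonic peak in Astrocytes, 14 (46.7%) in Neurons and 11 (36.7%) in NSCs, and 8 held one in all 3. This list shares collagen genes with the family above, so the results overlap. Its median gene length was 104.811 kb, and the number of exons was not taken into account. Col14a1, a collagen that binds to fibrils, had a peak at chromosome 7, 95124994 to 95125801 in Astrocytes of fold 93.3, beside 86.8 in Neurons and 47.5 in NSCs. Lamc1, the laminin gamma chain of most basement membranes, had a broad exonic peak at chromosome 13, 70664077 to 70665485 in Astrocytes, with folds of 35.9 in Astrocytes, 57.0 in Neurons and 42.9 in NSCs. Lama2, the laminin alpha chain of muscle and nerve, had 51.4, 53.1 and 25.9 at a common locus. Col4a2, a basement membrane collagen, had 56.7, 37.4 and 42.1. The strongest exonic peaks of these 4 genes were called in all 3 cell types.

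Presynaptic, channel and cytoskeleton genes held exonic peaks more often than all genes in each cell type, and postsynaptic genes did in Neurons and NSCs. Against the longest decile, with 18.3%, 21.7% and 18.4%, the postsynaptic shares were lower in each cell type. The channel share was lower than the longest decile in Astrocytes, and the other shares of these lists were higher. Of 26 presynaptic genes, 6 (23.1%) held one in Astrocytes, 7 (26.9%) in Neurons and 5 (19.2%) in NSCs. The median gene lengths of the presynaptic, postsynaptic, channel and cytoskeleton lists were 134.054, 169.272, 149.934 and 84.445 kb, and the part of length was not tested. Unc13a, the main priming factor of central synapses, had an exonic peak over 2 kb wide at chromosome 16, 20072600 to 20074606 in Astrocytes, with folds of 24.1 in Astrocytes, 33.0 in Neurons and 23.1 in NSCs. Sv2c, a synaptic vesicle glycoprotein, had an exonic peak of fold 85.8 in Astrocytes that overlapped intronic peaks of fold 111 in Neurons and 46.9 in NSCs. Of 34 postsynaptic genes, 1 (2.94%) held an exonic peak in Astrocytes, 5 (14.7%) in Neurons and 5 (14.7%) in NSCs. Gria4, an AMPA receptor subunit gene, had 2 exonic peaks in NSCs. The one at chromosome 8, 1610240 to 1610771, had a fold of 25.8 and no overlapping peak in Astrocytes or Neurons. The other, of fold 13.6, overlapped intronic peaks of fold 10.7 in Astrocytes and 7.07 in Neurons.

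Of 22 ion channel genes, 3 (13.6%) held an exonic peak in Astrocytes, 7 (31.8%) in Neurons and 5 (22.7%) in NSCs. Scn8a, a sodium channel of axon initial segments, had a common exonic peak with folds of 13.2 in Astrocytes, 16.5 in Neurons and 16.8 in NSCs. Of 21 cytoskeleton and ankyrin genes, 7 (33.3%) held an exonic peak in Astrocytes, 6 (28.6%) in Neurons and 7 (33.3%) in NSCs. Kif5a, a neuronal kinesin, had 2 exonic peaks in each cell type, and the wider one had folds of 28.9 in Astrocytes, 30.0 in Neurons and 10.1 in NSCs. Dcx, coding for doublecortin of migrating neurons, had 1 in each cell type, none with an intron entry. The peaks of Astrocytes and Neurons overlapped, with folds of 15.3 in each, and the NSCs peak, of fold 11.3, lay apart from them.

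The axon guidance list differed in number between the lists, with 4 of 35 genes (11.4%) in Astrocytes, 13 (37.1%) in Neurons and 3 (8.57%) in NSCs. The difference between cell types was not tested. Ephb1, an ephrin receptor gene, was the one member found in all 3, with folds of 31.6 in Astrocytes, 14.9 in Neurons and 25.2 in NSCs. Dscam, an adhesion molecule of neurite self-avoidance, had an exonic peak in Neurons only, of fold 39.0, which overlapped intronic peaks of fold 31.8 in Astrocytes and 32.5 in NSCs. In Neurons, 7 of the 13 genes had no exonic peak with a score of 100 or more, namely Slit1, Slit3, Epha3, Epha5, Ntn1, Dscaml1 and Reln. The other 6 reached scores between 104.77 in Ntn4 and 1151 in Dscam. An intronic peak was present in 31 of the 35 genes in each of the 3 lists.

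Lists of cell identity genes gave few genes each, on both sides of the shares over all genes. Of 23 astrocyte genes, 1 (4.35%) held an exonic peak in Astrocytes, 4 (17.4%) in Neurons and none in NSCs. The 1 in Astrocytes was Aqp4, the water channel of astrocyte endfeet, with a peak at the end of the gene of fold 13.9, overlapping one of fold 9.66 in Neurons. Of 22 stem and progenitor genes, 1 (4.55%) held an exonic peak in Astrocytes, 4 (18.2%) in Neurons and 3 (13.6%) in NSCs. Vim, the intermediate filament vimentin, was the member found in all 3, at chromosome 17, 80887574 to 80888406 in Astrocytes, with folds of 50.3 in Astrocytes, 38.8 in Neurons and 33.5 in NSCs. The authors' deposited table lists a region there as higher in Astrocytes than in Neurons, and none as higher in Astrocytes than in NSCs. Of 32 neural fate transcription factors, 2 (6.25%) held an exonic peak in Astrocytes, 1 (3.13%) in Neurons and 3 (9.38%) in NSCs, with Cux1, a factor of upper cortical layers, in all 3.

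Of 15 oligodendrocyte genes, 3 (20%) held an exonic peak in each cell type, and of 20 microglia and vessel genes 2 (10%) held one in Astrocytes, 1 (5%) in Neurons and 2 (10%) in NSCs. Mobp, a myelin protein gene, had folds of 27.3 in Astrocytes, 24.7 in Neurons and 21.8 in NSCs at a common locus. Of 40 chromatin genes, 7 (17.5%) held an exonic peak in Astrocytes, 11 (27.5%) in Neurons and 6 (15%) in NSCs, with Chd9, a chromatin remodeller, in all 3 at folds of 16.1, 20.3 and 14.0. Of 31 cell cycle genes, 4 (12.9%) held one in Astrocytes, 7 (22.6%) in Neurons and 5 (16.1%) in NSCs, with Cenpf, a kinetochore protein, in all 3.

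The genes closest to the study's title gave little. Txnrd3, the thioredoxin reductase of the title, had an exonic peak in Neurons only, at chromosome 4, 121620301 to 121620719, with a fold of 12.1 and a score of 51.8. That score is close to the list minimum of 50. It overlapped an intronic peak of fold 9.62 in Astrocytes and no peak in NSCs, and no list of the authors' comparisons held it as higher in Neurons. N6amt1 held no exonic peak in any list. Of 14 adenine methylation enzymes, Mettl16, an RNA methyltransferase, was the one with an exonic peak, of fold 10.2 in Astrocytes and 13.9 in Neurons, with no overlapping peak in NSCs.

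Of 27 thioredoxin and glutathione genes, 2 (7.41%) held an exonic peak in each cell type. Cat, which codes for catalase, did so in all 3, with folds of 19.4 in Astrocytes, 22.1 in Neurons and 15.7 in NSCs at a common locus without an intron entry. A further exonic peak of Cat in Astrocytes had a fold of 66.5 and overlapped intronic peaks of fold 49.4 in Neurons and 32.7 in NSCs. Txnrd2, the mitochondrial thioredoxin reductase, had one in NSCs only, with a fold of 14.8.

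**Figure D4:**
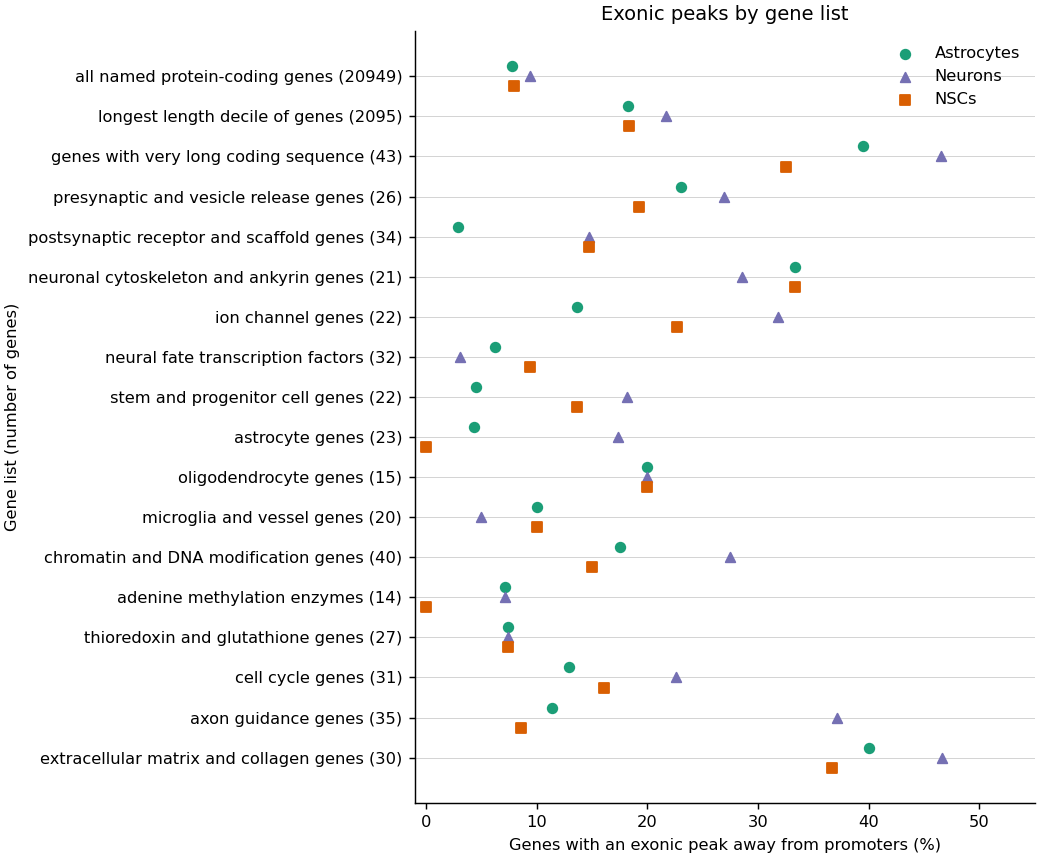
Percent of the genes of each list that held an exonic peak (x axis) in Astrocytes, Neurons and NSCs, with the number of genes in parentheses (y axis). All named protein-coding genes and the longest length decile of them stand at the top, with 7.83%, 9.38% and 7.93%, and with 18.3%, 21.7% and 18.4%, in Astrocytes, Neurons and NSCs.

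Gene families differed widely in these shares. Olfactory receptor genes, with a median length of 0.942 kb, held an exonic peak in 3 of 1197 cases in Astrocytes (0.251%), 9 in Neurons (0.752%) and 8 in NSCs (0.668%). Of 306 genes with symbols of the Rpl and Rps kind, 1, 2 and 1 held one, at 0.327%, 0.654% and 0.327% in Astrocytes, Neurons and NSCs. Zfp zinc finger genes gave 16, 19 and 18 of 427, or 3.75%, 4.45% and 4.22%, and vomeronasal receptor genes 9, 11 and 7 of 183, or 4.92%, 6.01% and 3.83%. Protocadherin genes gave 3, 4 and 4 of 53, or 5.66%, 7.55% and 7.55%. These 5 families lay below the shares over all genes in each cell type, but not all lay below genes of their length. The choice of peaks largely fixes low shares for olfactory receptor genes and for Rpl and Rps genes, the latter of median length 1.022 kb. Olfactory receptor genes lay above the shortest decile in each cell type. Vomeronasal receptor genes, of median length 3.569 kb, lay above the decile of median 5.537 kb, with 2.77%, 2.96% and 2.43%. Zfp and protocadherin genes, of 18.798 and 19.137 kb, lay below the decile of median 21.205 kb, with 7.26%, 8.83% and 7.59%. The part of length was not tested.

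Other families lay above the shares over all genes, though solute carrier genes in Astrocytes were close to the 7.83% there. Solute carrier genes gave 32 of 399 in Astrocytes (8.02%), 47 in Neurons (11.8%) and 39 in NSCs (9.77%). Their median length was 29.045 kb, and the length decile of median 30.806 kb gave more, with 10.9%, 12.9% and 11.5%. Kinesin genes, with a median length of 52.09 kb, gave 5, 7 and 7 of 41, or 12.2%, 17.1% and 17.1%. Cadherin genes, with a median length of 144.759 kb, gave 3, 7 and 4 of 24, or 12.5%, 29.2% and 16.7%. No microRNA gene of 458 held one, which the choice of peaks largely fixes, since such a short gene lies next to its own start.

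The authors' comparisons list regions where 1 immunoprecipitated library exceeded another, in 6 lists for the 3 pairs of cell types. Comparisons that share a cell type share its library and are not independent. In each of the 6, exonic peaks of the higher cell type overlapped a listed region more often than peaks in general did. For Astrocytes over Neurons the share was 14.0% of exonic peaks (12.7% to 15.4%), against 11.2% of all Astrocytes peaks. For Neurons over Astrocytes it was 24.1% (22.6% to 25.6%), against 22.1% of all Neurons peaks. For Astrocytes over NSCs it was 19.6% (18.0% to 21.1%), against 15.0% of all Astrocytes peaks, and for NSCs over Astrocytes 23.0% (21.4% to 24.7%), against 20.2% of all NSCs peaks. For Neurons over NSCs it was 24.3% (22.8% to 25.8%), against 19.7% of all Neurons peaks, and for NSCs over Neurons 18.7% (17.3% to 20.3%), against 16.9% of all NSCs peaks.

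The excess lay among exonic peaks of low score, a split at 100 whose lower side was looked at after the data were seen. Below a score of 100, the listed shares of exonic peaks were 19.2% for Astrocytes over Neurons, 28.2% for Neurons over Astrocytes, 23.3% for Astrocytes over NSCs, 29.2% for NSCs over Astrocytes, 26.0% for Neurons over NSCs and 24.7% for NSCs over Neurons. All peaks below that score gave 13.1%, 23.1%, 15.5%, 21.8%, 18.3% and 19.3% in the same order. At a score of 100 or more the exonic shares were 7.67%, 19.3%, 15.1%, 15.7%, 22.3% and 11.7%, against 8.53%, 20.8%, 14.2%, 18.0%, 21.7% and 13.6% of all peaks. There the exonic share was the lower one in 4 of the 6 lists and the higher one in Astrocytes over NSCs and in Neurons over NSCs.

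**Figure D5:**
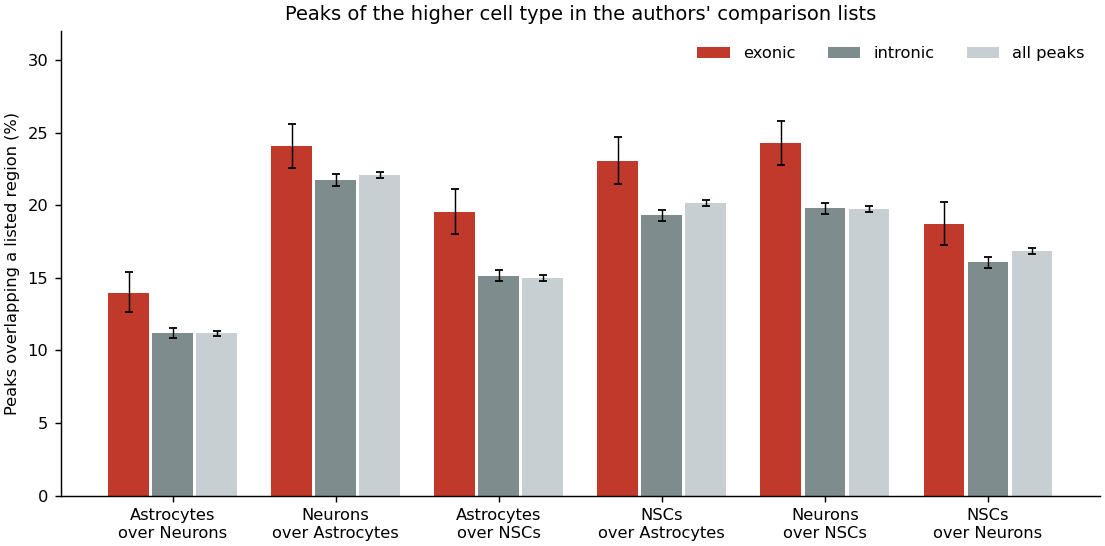
Percent of peaks of the higher cell type that overlap a region of the authors' comparison list (y axis) for the 6 lists (x axis), as exonic, intronic and all peaks with exact 95% intervals. Exonic peaks are the highest bar in each list, from 14.0% for Astrocytes over Neurons to 24.3% for Neurons over NSCs.

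Listed exonic peaks were mostly those without a counterpart in the other cell type. For Astrocytes over Neurons, 33.1% of exonic peaks that overlapped no Neurons peak were listed and 1.72% of those that did, against 25.9% and 1.52% of all peaks. For Neurons over NSCs the shares were 39.8% and 9.24%, against 32.9% and 7.32% of all peaks. In each of the 6 lists the exonic share was above that of all peaks on both sides of this split. Among peaks with a counterpart, that excess lay within the exonic counting interval for Astrocytes over Neurons, Neurons over Astrocytes and NSCs over Neurons. Listed exonic peaks had median scores of 70.0 to 85.2 over the 6 lists, against 94.5 to 100.2 for those not listed, and what the score contributes was not tested beyond the split at 100. Exonic regions were 3.14% to 3.69% of the listed regions themselves.

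Exonic peaks listed as higher than in both other cell types were 7.16% in Astrocytes (6.20% to 8.23%), 11.2% in Neurons (10.2% to 12.4%) and 10.5% in NSCs (9.33% to 11.7%). All peaks gave 4.73%, 8.47% and 8.24%. Exonic peaks in neither list of their cell type were 73.6%, 62.9% and 68.7%, against 78.6%, 66.6% and 71.2% of all peaks.

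Of the exonic peaks behind the 5 largest folds in each list, none overlapped a peak of the lower cell type. Choosing by fold over that cell type makes this likely in advance. Listed peaks of all classes mostly lacked a counterpart too. For Astrocytes over Neurons, 11903 of them overlapped no Neurons peak and 1065 did. For Astrocytes over Neurons, the authors' deposited table gives folds of 20.8 for Itgbl1, a gene related to integrin beta chains, and 19.5 for Tsc1, a brake on mTOR signalling. For Neurons over Astrocytes, the authors' deposited table gives 26.0 for Cacna1e, the R-type calcium channel, at chromosome 13, 72341727 to 72342193. The Cacna1e region is an exonic peak of fold 21.5 in Neurons, and NSCs had an overlapping exonic peak of fold 15.0 that is also listed as higher than in Astrocytes. Ptprq, a receptor phosphatase of inner ear hair cells, showed the same pattern, with folds over input of 18.1 in Neurons and 17.6 in NSCs.

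For Astrocytes over NSCs, the authors' deposited table gives 22.6 for Actr3, a subunit of the actin-nucleating Arp2/3 complex, and 19.1 for Hk2, a hexokinase. For NSCs over Astrocytes, the authors' deposited table gives 30.6 for Ryk, a receptor of Wnt ligands, and 27.9 for Gria4. The Ryk peak had a fold over input of 28.8 in NSCs and 7.74 in Neurons, and it was listed as higher in NSCs than in each of the other cell types. For Neurons over NSCs, the authors' deposited table gives 21.0 for Pde4d, a cyclic AMP phosphodiesterase, and 19.7 for Epha7, an ephrin receptor. Epha7 held 2 exonic peaks in Neurons, both listed as higher than in Astrocytes and NSCs. For NSCs over Neurons, the authors' deposited table gives 21.4 for Ndst1, an enzyme of heparan sulfate synthesis, and 18.5 for Itm2c, which is listed as higher in NSCs than in Astrocytes as well.

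Exonic peaks were spread unevenly over the chromosomes. Their share of all peaks was highest on chromosome 12 in each list, with 3.62% in Astrocytes, 4.10% in Neurons and 3.44% in NSCs. It was lowest on X among the chromosomes with exonic peaks, with 1.13% in Astrocytes, 1.39% in Neurons and 1.13% in NSCs. On X the exonic share of exonic and intronic peaks was 4.85% in Astrocytes, 5.80% in Neurons and 4.93% in NSCs. On chromosome 12 it was 8.72%, 9.86% and 8.35%. By this measure X was not the lowest, as chromosome 18 gave 4.59%, 5.76% and 4.53%. Chromosome 10 lay above chromosome 12 in Neurons and NSCs, with 9.93% and 9.06%. On Y, none of 40 peaks in Astrocytes, 51 in Neurons and 43 in NSCs was exonic, which allows shares of up to 8.81%, 6.98% and 8.22%. Gene and exon density of the chromosomes was not taken into account.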

How the data were processed

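Rat DNA was sonicated, denatured, enriched with an antibody against 6mA and sequenced, per the labels' protocols. Reads were aligned with BWA, per the submitters' processing notes. Caller version, genome build and annotation were not given in the sources used here. Read counts and the percent of reads mapped come from the deposited mapping summary, of which 1 line was not used. The deposited score of a peak is 10 times its −log10 p and is at least 50 in each list. The authors' fold is a ratio, taken over the input in the peak lists and over another cell type's library in the 6 comparison lists. With 1 library per cell type there were no replicates to pool.

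Lists were read as deposited, and 3 malformed lines were skipped in the input-based lists and 3 in the comparison lists. Overlap meant at least 1 bp. Alternatives were a score of at least 100, peaks with no intron entry, placed chromosomes only, and cover of at least 50% of the peak. Symbols were matched to the RefSeq annotation of GRCr8 for names, gene lengths and biotypes, and its coordinates were not used. Of the genes with an exonic peak and a symbol that is no placeholder, 98.8% matched in Astrocytes, 98.9% in Neurons and 99.1% in NSCs.

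The members, 16 gene lists with 431 genes and 11 families were chosen with earlier results of these data known. Named genes were, per cell type, the 10 with the largest fold and the 10 with the most exonic peaks, the 10 with the highest lowest fold over the 3 cell types, up to 3 per gene list, 5 per comparison list, and both genes of the series title. Of the genes this rule takes, 1 is not reported here. Other genes of the lists that are named were picked after their values were seen. Python 3.11.15, pandas 2.3.3, numpy 2.4.6, SciPy 1.17.1 and matplotlib 3.10.9 were used. The scripts were tested on simulated data.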

Additional observations from a re-analysis of the deposited data

How the results depend on the processing

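Keeping only scores of at least 100 left 1174 exonic peaks in Astrocytes, 1481 in Neurons and 1210 in NSCs, and keeping only those with no intron entry left 554, 678 and 553, as fewer peaks meet each condition. The shares overlapping both other lists became 67.6%, 57.4% and 68.3% in Astrocytes, Neurons and NSCs with that score required in all lists, 39.0%, 32.7% and 42.5% with no intron entry, and 39.2% in Neurons and 46.4% in NSCs with at least 50% of the peak covered. Astrocytes stayed at 46.0% there. The listed shares at that score were 7.67% for Astrocytes over Neurons, 19.3% for Neurons over Astrocytes, 15.1% for Astrocytes over NSCs, 15.7% for NSCs over Astrocytes, 22.3% for Neurons over NSCs and 11.7% for NSCs over Neurons. With no intron entry they were 26.8% for NSCs over Astrocytes and 21.5% for NSCs over Neurons, and the other 4 moved by less than their interval. The cause was not tested. Placed chromosomes only gave the same values, since every peak lay on 1 of 22 chromosomes. No paired analysis was possible because each cell type had 1 library and no test was made. The depth behind each peak is not in the lists, so a peak missing from a list may be one that its depth could not show.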
